A study of Mus musculus with 96 samples.

Results

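The daily time course of gene expression in Control hepatocytes was taken from 12 of the 96 libraries of the series. Members were chosen by their labels alone: hepatocyte RNA-seq libraries of the Control genotype, 3 at each of the 4 zeitgeber times ZT4, ZT10, ZT16 and ZT22, where zeitgeber time counts hours from lights on and lights went off at ZT12. The mice were male C57BL/6J. Per the study's methods they carried floxed alleles of Rev-erbα and Rev-erbβ and received, at 8 weeks of age, a viral vector that expressed GFP from the hepatocyte-specific TBG promoter, with no Cre recombinase. Whether the Control mice also carried the floxed Scap allele is not given in the sources used here. All of them then ate D12492i, a diet rich in fat and sucrose that causes fatty liver, for 4 weeks. The comparison asks which transcripts of these hepatocytes changed over the day.

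The liver clock is a feedback loop. BMAL1 (gene Arntl) with CLOCK or NPAS2 switches on the Per and Cry genes, whose products repress that activity, and also switches on Nr1d1 and Nr1d2, which encode the repressors REV-ERBα and REV-ERBβ. REV-ERBs and the activating ROR receptors compete for the same DNA elements, among them those of Arntl itself. In the liver this loop and the daily cycle of feeding set the timing of lipid, bile acid and glucose metabolism.

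Values were RPKTM, reads per kilobase of transcript at 10 times the RPKM scale, quantile normalised by the authors so that every column held the same set of values. The depth of each library is therefore unknown, and the precision of a mean rests on 3 libraries a time. Of 25095 gene symbols, 12624 had more than 5 RPKTM in at least 3 of the 12 columns and were tested. Correlations between libraries ran from 0.968 to 0.987 on the log2 scale. The largest value of the table belonged to Rn45s, the ribosomal RNA precursor, in 11 libraries, and to Alb, albumin, in replicate 2 of ZT22. Nothing in the labels ties a library to a named animal. The study calls them biological replicates, and the p-values measure only the spread between these libraries.

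Hepatocyte markers were high throughout, but markers of other liver cells moved with time. The 8 hepatocyte markers (Alb, Apoa1, Ttr, Apob, Cps1, Serpina1a, Hnf4a and Asgr1) summed to between 453576 and 1050510 RPKTM, and none of them passed the test over the 4 times. Alb stood at 298478, 448178 or 838976 RPKTM in every library, values fixed by its rank under the quantile normalisation. The sums therefore follow mainly the rank of Alb and say little about whether hepatocyte content was constant. The 10 macrophage markers (Adgre1, Clec4f, Cd68, Csf1r, Vsig4, Marco, Cd5l, C1qa, C1qb and Lyz2) summed to 238 to 676 RPKTM at ZT4, 517 to 823 at ZT10, 961 to 2364 at ZT16 and 2202 to 3160 at ZT22, and none of them was at 0 in any library. All 10 passed the test and were highest at ZT22. Clec4f, a lectin of Kupffer cells, stood at 61.99, 114 and 169 RPKTM at ZT4, 204, 128 and 160.2 at ZT10, 258, 406 and 603 at ZT16 and 678, 608 and 625 at ZT22, so that the ZT4 and ZT22 libraries did not overlap. The 6 endothelial markers moved the same way, from 409 to 736 RPKTM at ZT4 to 1353 to 2310 at ZT22, and all 6 passed. The 6 stellate cell markers summed to 222 to 565 RPKTM at ZT4 and 943 to 1824 at ZT22, and 3 of them (Lrat, Dcn and Col3a1) passed. In bulk RNA, more cells of a type and more RNA per cell cannot be told apart. These sums stand beside every group of genes below that was highest at ZT22 or ZT16, and their part in those differences was not tested gene by gene except with the marker level as a covariate.

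**Figure D1:**
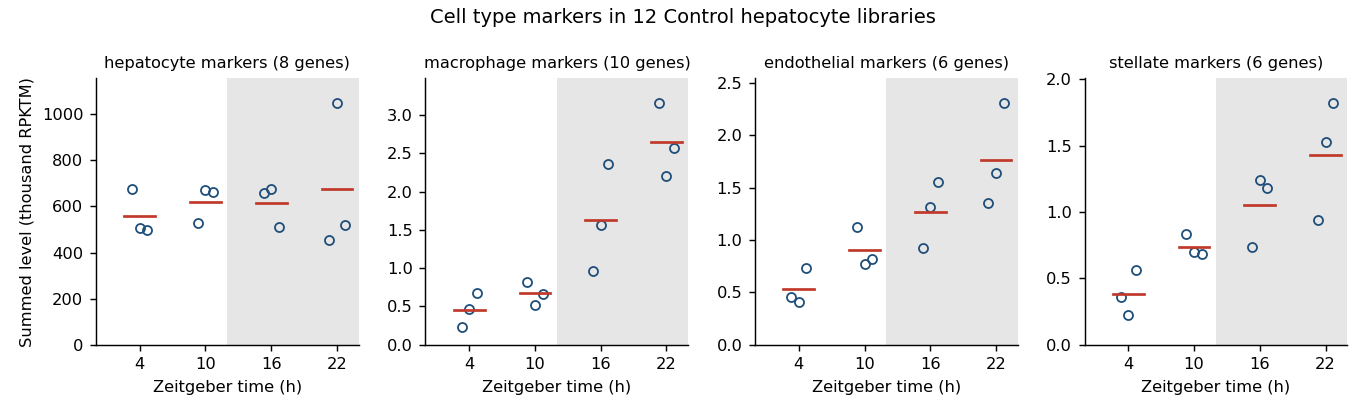
Summed level of marker genes of 4 liver cell types (in units of 1000 RPKTM, y axis) in each of the 12 Control hepatocyte libraries by zeitgeber time (x axis, grey for the dark phase). Points are libraries and bars are means of 3. No hepatocyte marker passed the test over the 4 times, and the hepatocyte sums follow mainly the rank of Alb under the quantile normalisation. Macrophage markers rose from 238 to 676 RPKTM at ZT4 to 2202 to 3160 at ZT22.

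Genes that differed between times most often had their highest mean at ZT22. A moderated F-test over the 4 time means (limma on log2(RPKTM + 1), Benjamini-Hochberg adjusted p under 0.05) called 874 of 12624 genes, 6.92%. Of these, 172 (1.36% of the genes tested) had their highest mean at ZT4, 115 (0.911%) at ZT10, 144 (1.14%) at ZT16 and 443 (3.51%) at ZT22. The split between ZT16 and ZT22 goes by the larger mean, as those times differed from each other in only 1 gene. The rank test given below, with the series entered 2 times, placed more peaks at ZT16 (977) than at ZT22 (742). The difference between the highest and the lowest time mean had a median of 1.44 on the log2 scale among called genes, against 0.51 among all genes tested. It was above 1 for 687 genes, above 2 for 177 and above 3 for 22. In all 874 the 3 libraries at the highest time lay above the 3 at the lowest time, a separation that 49.0% of all tested genes showed too. Leaving out 1 library moved the count by more than 1.5 times in 7 of 12 cases: to 564, 481 and 502 without ZT10 replicates 1, 2 and 3, to 545 and 560 without ZT16 replicates 2 and 3, and to 516 and 559 without ZT22 replicates 2 and 3.

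The genes highest at ZT22 were largely genes with a higher level in liver macrophages. Of the 443, 295 (66.6%) had a higher mean in the Control macrophage columns of the companion table than in these hepatocyte columns, and 149 (33.6%) were at least 4 times higher there. The same share was 31.9% (46 of 144) at ZT16, 2.61% (3 of 115) at ZT10 and 2.33% (4 of 172) at ZT4, against 15.9% of all genes tested. The 2 tables were normalised separately, so these levels are a description without a test. With the mean level of the macrophage markers as a covariate 27 genes were called, 26 of them among the 874, and they were spread as 6, 8, 6 and 7 over ZT4, ZT10, ZT16 and ZT22. The times account for 84.2% of the variance of that marker level, so time and marker level cannot be told apart in that fit. A separate fit of the genes with a lower mean in the macrophage table than here called 376 of 10618 (3.54%). Of the 98 called genes that the naming rule and lists gave, 12 kept their call with the macrophage covariate, among them Arntl, Thrsp, Usp2, Tsku, Alas1, Egr1, Elovl3, Igfbp1, Wee1, Ddc and Klhl31. The 98 include the 10 macrophage markers that make up the covariate, which that fit cannot judge.

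**Figure D2:**
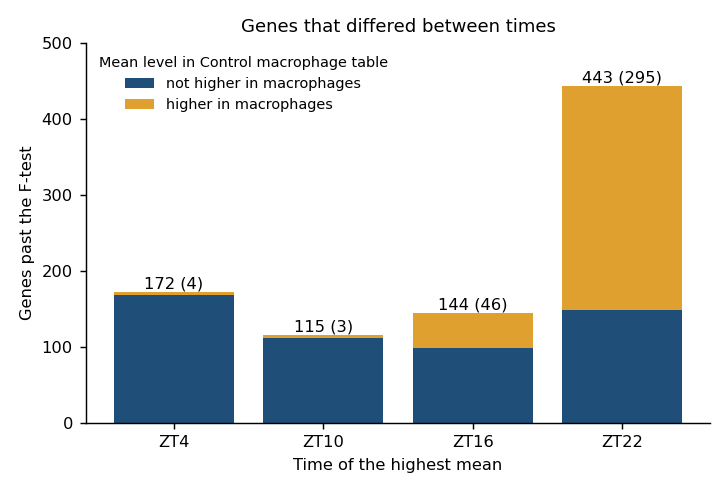
Number of genes past the F-test (y axis) by the time of their highest mean (x axis). Orange marks genes whose mean was higher in the Control macrophage table, and the labels give the total with that number in brackets: 172 (4), 115 (3), 144 (46) and 443 (295).

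Between pairs of times, ZT4 and ZT22 differed in the most genes and ZT16 and ZT22 in the fewest. From ZT22 to ZT4, 675 genes (5.35%) were lower and 272 (2.15%) higher at ZT4. From ZT4 to ZT16, 500 genes (3.96%) were higher and 250 (1.98%) lower at ZT16. ZT22 against ZT10 gave 300 higher (2.38%) and 139 lower (1.10%). The neighbouring times in the light phase, ZT10 and ZT4, differed in 31 genes higher (0.246%) and 17 lower (0.135%) at ZT10, and ZT16 against ZT10 in 37 higher (0.293%) and 20 lower (0.158%). ZT22 and ZT16 differed in 1 gene (0.00792%), which was higher at ZT22, though 910 genes (7.21%) had an unadjusted p under 0.05. That gene, picked out here for being alone, was Gm31508, an unnamed gene model with 9.93, 10.4 and 17.4 RPKTM at ZT16 and 47.3, 70.3 and 67.8 at ZT22 (difference 2.23 ± 0.28, pair adjusted p = 0.0138). Here and below ± after a log2 difference is its standard error, the pair adjusted p is that of the named difference, and the F-test adjusted p is that over all 4 times, which decides whether a gene is called. Without 1 library the counts ranged from 454 (ZT22 replicate 3 out) to 1101 (ZT4 replicate 3 out) for ZT4 against ZT22, from 126 (ZT16 replicate 2 out) to 1070 (ZT4 replicate 3 out) for ZT16 against ZT4, from 90 (ZT10 replicate 2 out) to 704 (ZT4 replicate 3 out) for ZT22 against ZT10, from 7 (ZT10 replicate 3 out) to 94 (ZT4 replicate 1 out) for ZT10 against ZT4, from 3 (ZT16 replicate 2 out) to 156 (ZT16 replicate 1 out) for ZT16 against ZT10, and from 0 (ZT16 replicate 1 out) to 3 (ZT16 replicate 3 out) for ZT22 against ZT16.

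The activators of the clock were highest at ZT22 and lowest at ZT10. Arntl, which encodes BMAL1, was at 58.2, 32.1 and 19.7 RPKTM at ZT4, 4.62, 4.21 and 10.6 at ZT10, 63.1, 89.5 and 99.2 at ZT16 and 112, 117 and 119 at ZT22. The 3 libraries of ZT22 were within a few RPKTM of each other and the 3 of ZT10 lay far below all others, with a ZT22 minus ZT10 difference of 4.07 ± 0.36, pair adjusted p = 0.000169, F-test adjusted p = 0.000244. Npas2, the partner that can replace CLOCK, was at 11.4, 1.22 and 0 RPKTM at ZT4, 0, 1.06 and 0 at ZT10, 0, 2.64 and 7.28 at ZT16 and 26.7, 41.5 and 58.5 at ZT22. It was detected in all 3 ZT22 libraries and close to 0 in most of the rest, with a ZT22 minus ZT10 difference of 5.02 ± 0.85, pair adjusted p = 0.00711, F-test adjusted p = 0.0119, but its call was lost without ZT22 replicate 2 or 3 (adjusted p up to 0.0589). Clock itself did not pass (F-test adjusted p = 0.149), with means of 312 ± 199, 241 ± 13.8, 462 ± 44.7 and 489 ± 47.4 RPKTM (SD, n = 3) in time order. Replicate 2 of ZT4 held a Clock value of 109.8 RPKTM against 507 and 318 in the other ZT4 libraries. Arntl and Npas2 had lower means in the macrophage table (20.4 and 1.43 RPKTM) than in these hepatocytes (60.8 and 12.5). Arntl kept its call with the macrophage covariate (adjusted p = 0.014) and Npas2 did not (adjusted p = 0.248).

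The REV-ERB repressors were highest in the light phase, opposite to Arntl. Nr1d1 was at 113, 300.1 and 358 RPKTM at ZT4, 102, 81.005 and 75.7 at ZT10, 16.005, 12.1 and 6.14 at ZT16 and 5.09, 16.2 and 3.57 at ZT22. Every light-phase library lay above every dark-phase library, and the ZT4 minus ZT22 difference of 4.88 ± 0.49, pair adjusted p = 0.000366, F-test adjusted p = 0.000311, was the largest of the genes named here for ZT4. The Nr1d1 gene overlaps the end of Thra on the other strand, and whether reads were counted by strand is not given in the sources used here. Nr1d2 was at 235, 292 and 388 RPKTM at ZT4, 405, 422 and 348 at ZT10, 200.3, 153 and 106 at ZT16 and 63.8, 91.96 and 34.2 at ZT22, again with no overlap between light and dark (ZT10 minus ZT22 difference of 2.72 ± 0.31, pair adjusted p = 0.000449, F-test adjusted p = 0.00138). Neither kept its call with the macrophage covariate (adjusted p = 0.198 and 0.279). Of the ROR receptors, which compete with REV-ERBs as activators, Rora did not pass, with time means between 517 and 581 RPKTM (F-test adjusted p = 0.879), and Rorb was too low to be tested.

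Of the 5 repressors of the PER and CRY families 3 were called (60%, against 6.92% of all genes). Per2 and Per3 had their highest mean at ZT10 and Cry1 at ZT16. Per3 was at 54.3, 149 and 302 RPKTM at ZT4, 398, 381 and 297 at ZT10, 147, 138 and 87.5 at ZT16 and 35.8, 70.4 and 27.98 at ZT22 (ZT10 minus ZT22 difference of 3.08 ± 0.47, pair adjusted p = 0.00359, F-test adjusted p = 0.00837). Per2 was at 87.2, 99.5 and 168 RPKTM at ZT4, 277, 329 and 382 at ZT10, 290.4, 360.1 and 245 at ZT16 and 128, 171 and 218 at ZT22, so that ZT10 and ZT16 overlapped and both lay above ZT4 (ZT10 minus ZT4 difference of 1.52 ± 0.25, pair adjusted p = 0.0199, F-test adjusted p = 0.0062). Cry1 came later, at 32.9, 26.3 and 15.5 RPKTM at ZT4, 28.1, 34.7 and 51.3 at ZT10, 125, 165 and 193 at ZT16 and 119, 147 and 127 at ZT22, with every dark-phase library above every light-phase one (ZT16 minus ZT4 difference of 2.68 ± 0.28, pair adjusted p = 0.000615, F-test adjusted p = 0.000311). Per1 and Cry2 did not pass. Per1 means were 61.5 ± 7.40 RPKTM at ZT4 and 122 ± 60.5 at ZT16, where replicate 2 stood at 186 (F-test adjusted p = 0.214), and Cry2 means were 125 ± 19.3 at ZT10 and 74.9 ± 24.6 at ZT22 (F-test adjusted p = 0.24). None of the 3 called members lost significance when any single library was left out, but with the macrophage covariate all 3 did (adjusted p = 0.0614 for Per2, 0.17 for Per3 and 0.0614 for Cry1).

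The output factors of the clock, the PAR bZIP activators and their antagonists, gave 6 calls of 7 tested (85.7%, against 6.92% of all genes), with the highest mean at ZT10 in 4, at ZT4 in 1 and at ZT22 in 1. Dbp, an activator of D-box genes, was at 33.7, 117 and 194 RPKTM at ZT4, 225, 207 and 139.6 at ZT10, 26.7, 11.99 and 15.8 at ZT16 and 7.39, 9.81 and 9.01 at ZT22. All light-phase libraries were above all dark-phase ones, although replicate 1 of ZT4 was low for its time (ZT10 minus ZT22 difference of 4.28 ± 0.47, pair adjusted p = 0.000432, F-test adjusted p = 0.000946). None of the 6 called kept its call with the macrophage covariate (adjusted p from 0.0614 for Dbp to 0.569 for Bhlhe41). Tef, of the same family, fell less, from 762 ± 89.1 RPKTM at ZT10 to 242 ± 60.5 at ZT22 (ZT10 minus ZT22 difference of 1.67 ± 0.29, pair adjusted p = 0.00737, F-test adjusted p = 0.0158), and lost its call without ZT10 replicate 2 or ZT22 replicate 3 (adjusted p up to 0.0564). Ciart, a repressor of CLOCK and BMAL1 activity, was at 8.81, 10.9 and 12.2 RPKTM at ZT4, 42.8, 62.5 and 55.2 at ZT10, 22.3, 33.7 and 10.8 at ZT16 and 1.64, 6.82 and 8.55 at ZT22, highest at ZT10 without overlap (ZT10 minus ZT22 difference of 3.21 ± 0.45, pair adjusted p = 0.00266, F-test adjusted p = 0.00456). Nfil3, the repressor that binds the same element as Dbp, ran opposite to it at 63.9, 76.4 and 58.1 RPKTM at ZT4, 53.8, 30.6 and 42.8 at ZT10, 87.8, 131 and 100.1 at ZT16 and 118, 136 and 119 at ZT22 (ZT22 minus ZT10 difference of 1.56 ± 0.22, pair adjusted p = 0.00266, F-test adjusted p = 0.00303). Its level in the macrophage table was lower, 21.8 RPKTM. Bhlhe40 (DEC1) rose from 351 ± 54.2 RPKTM at ZT4 to 738 ± 168 at ZT10 (pair adjusted p = 0.034, F-test adjusted p = 0.012) and lost its call without ZT10 replicate 2 or 3 (up to 0.0563). Bhlhe41 (DEC2) was low, between 1.27 and 38.6 RPKTM, and lost its call in 9 of the 12 fits without 1 library. Hlf did not pass (F-test adjusted p = 0.186).

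**Figure D3:**
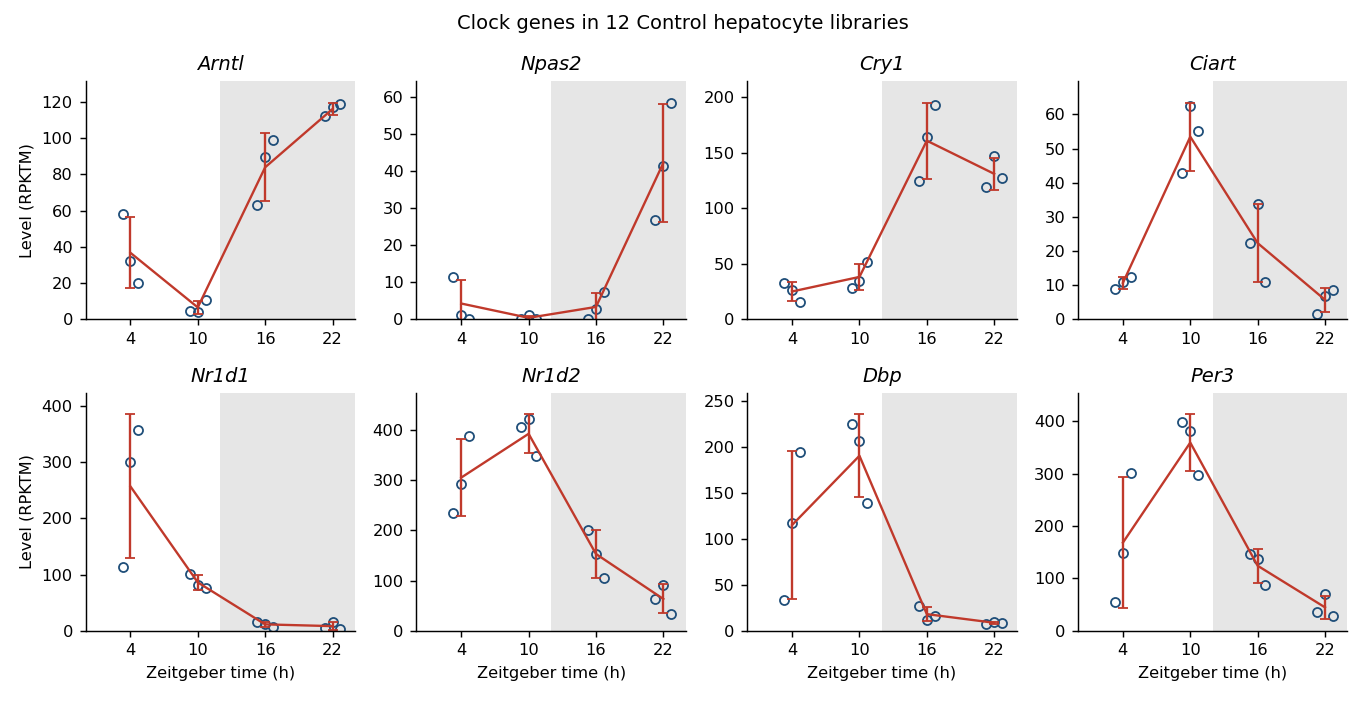
Levels of 8 clock genes (RPKTM, linear y axes from 0) in the 12 Control hepatocyte libraries by zeitgeber time (x axis, grey for the dark phase). Circles are libraries, and the red line joins means with SD bars (n = 3). Arntl ran opposite to Nr1d1, and Cry1 was high where Dbp and Nr1d1 were low.

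Together these genes formed an ordered sequence. A 24 h cosine, which 4 times 6 h apart can only place coarsely, put the peak of Nr1d1 at 6.59 ± 0.41 h (± SE), Dbp at 8.08 ± 0.36 h, Nr1d2 at 8.64 ± 0.45 h, Per3 at 9.81 ± 0.56 h, Tef at 10.53 ± 0.63 h, Ciart at 11.02 ± 0.51 h and Bhlhe40 at 11.64 ± 0.73 h. Per2 followed at 13.68 ± 0.63 h, Cry1 at 18.25 ± 0.32 h, Nfil3 at 20.46 ± 0.51 h, Arntl at 20.84 ± 0.43 h and Npas2 at 21.97 ± 0.72 h. Neighbours in this order, such as Dbp and Nr1d2 or Nfil3 and Arntl, lay within their standard errors of each other. The cosine terms were called in 1141 genes (9.04%), and in 688, 738, 720, 694 and 715 without ZT10 replicate 2 or 3, ZT16 replicate 2 or 3, or ZT22 replicate 2.

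Promoter sequence is shown for called clock genes whose 300 bases before the start of the measured transcript held an E-box (CACGTG, the element of BMAL1 and CLOCK, which reads the same on both strands) or a D-box (TTANGTAA, the element of DBP, TEF and NFIL3, searched on both strands). The windows were read from the mm9 genome, the build of the files, 5′ to 3′ on the gene's strand, with the matched element in capitals. Per3 (chr4:150418775-150419074, minus strand) held a pair of D-boxes, and Ciart (chr3:95686152-95686451, minus strand) held 3 E-boxes, those genes being the ones with most matches among the called clock genes.
Per3: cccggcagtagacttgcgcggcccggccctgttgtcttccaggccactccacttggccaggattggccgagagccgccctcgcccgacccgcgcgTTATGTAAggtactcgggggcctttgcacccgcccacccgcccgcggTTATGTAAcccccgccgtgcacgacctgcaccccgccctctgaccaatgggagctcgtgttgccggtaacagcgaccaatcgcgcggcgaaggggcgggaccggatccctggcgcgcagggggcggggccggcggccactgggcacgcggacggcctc
Ciart: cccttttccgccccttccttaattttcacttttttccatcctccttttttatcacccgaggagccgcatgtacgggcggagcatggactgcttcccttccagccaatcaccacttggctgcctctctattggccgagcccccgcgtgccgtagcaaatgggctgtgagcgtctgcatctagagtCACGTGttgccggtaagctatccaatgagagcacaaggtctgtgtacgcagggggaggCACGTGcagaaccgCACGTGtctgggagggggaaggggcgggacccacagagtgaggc
Shorter windows around a single match were taken for Per2 (chr1:93356004-93356041, minus strand, D-box 121 bases before the start), Cry1 (chr10:84647839-84647874, minus strand, E-box at 60), Tef (chr15:81632961-81632996, plus strand, E-box at 127), Bhlhe40 (chr6:108610351-108610386, plus strand, E-box at 257), Bhlhe41 (chr6:145814073-145814108, minus strand, E-box at 153) and the cell cycle gene Wee1 (chr7:117265545-117265572, plus strand, E-box at 13).
Per2: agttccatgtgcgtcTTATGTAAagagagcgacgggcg
Cry1: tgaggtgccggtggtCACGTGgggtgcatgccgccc
Tef: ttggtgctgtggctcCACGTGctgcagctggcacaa
Bhlhe40: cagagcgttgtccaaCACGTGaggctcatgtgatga
Bhlhe41: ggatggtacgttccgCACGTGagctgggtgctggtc
Wee1: ggtgggctgggccctCACGTGgttaacg
Such matches were not rare. Over all 12610 promoters that could be read, 9.25% held the E-box and 1.75% the D-box. Among the 115 called genes highest at ZT10 the shares were 9.57% and 5.22% (6 promoters, among them Per2 and Per3), and among the 443 highest at ZT22 they were 6.09% and 1.35%. The ROR element (A, any 2 bases, T, any base, then GGTCA, on either strand) was in 2.07% of all promoters and in 2.26% of those highest at ZT22. No match of these letters lay in the windows of Arntl, Npas2, Nr1d1, Nr1d2 or Dbp. These are counts of letters, without a test.

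Of 13 fatty acid synthesis genes tested 7 were called, 53.8% against 6.92% of all genes (Acly, Fasn, Elovl6, Scd1, Fads2, Thrsp and Pnpla3), all with their highest mean at ZT10 and their lowest at ZT4, and the median difference between highest and lowest time of the 13 was 1.54 on the log2 scale. Fasn, the fatty acid synthase, was at 3578, 1926 and 3368 RPKTM at ZT4, 11909, 21193 and 19004 at ZT10, 2966, 9799 and 8155 at ZT16 and 2136, 6235 and 10131 at ZT22. The ZT10 libraries lay above all others, while replicate 1 of ZT16 and of ZT22 was lower than the other libraries of its time (ZT10 minus ZT4 difference of 2.56 ± 0.51, pair adjusted p = 0.0467, F-test adjusted p = 0.0308). Thrsp, a lipogenic regulator, was at 485, 274 and 269 RPKTM at ZT4, 1468, 3009 and 2438 at ZT10, 1436, 2294 and 1501 at ZT16 and 322, 570.0 and 869 at ZT22, with ZT10 and ZT16 both above ZT4 and ZT22 (ZT10 minus ZT4 difference of 2.74 ± 0.35, pair adjusted p = 0.0034, F-test adjusted p = 0.00152). Elovl6, an elongase, went from 176 ± 48.8 RPKTM at ZT4 to 948 ± 271 at ZT10 (pair adjusted p = 0.0499, F-test adjusted p = 0.0273). Scd1, the stearoyl-CoA desaturase, was at 2252 ± 891 RPKTM at ZT4, 11144 ± 4347 at ZT10 and 10197 ± 3142 at ZT22 (pair adjusted p = 0.0599 for ZT10 against ZT4, F-test adjusted p = 0.0213). Acly, which makes cytosolic acetyl-CoA, was at 1131 ± 244 RPKTM at ZT4 and 3042 ± 469 at ZT10, a pair that did not pass (pair adjusted p = 0.0809, F-test adjusted p = 0.0405). Pnpla3, a lipid droplet protein, was low but went from 5.50, 0 and 1.17 RPKTM at ZT4 to 24.1, 42.5 and 27.7 at ZT10 (difference 3.71 ± 0.68, pair adjusted p = 0.0307, F-test adjusted p = 0.00921). Acaca and Acacb, the acetyl-CoA carboxylases, did not pass (F-test adjusted p = 0.21 and 0.106), with Acaca means of 405 ± 138 and 826 ± 135 RPKTM at ZT4 and ZT10. Thrsp and Pnpla3 stayed past the threshold whichever library was left out. Fasn lost its call in 5 of the 12 fits, Acly and Fads2 in 6 each, Elovl6 in 5 and Scd1 in 2, with adjusted p up to 0.148. With the macrophage covariate Thrsp kept its call (adjusted p = 0.00661). The other called genes of this list did not (adjusted p from 0.109 for Pnpla3 to 0.28 for Scd1).

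The SREBP machinery, which drives these genes, gave 3 calls of 7 (42.9%, against 6.92% of all genes), with 1 highest at ZT10 and 2 at ZT22. Srebf1, which encodes SREBP1, was at 1708, 1220.0 and 2226 RPKTM at ZT4, 3076, 4059 and 4734 at ZT10, 1621, 2117 and 2129.7 at ZT16 and 1409, 2095 and 2226 at ZT22, above all other libraries at ZT10 (ZT10 minus ZT4 difference of 1.22 ± 0.24, pair adjusted p = 0.0444, F-test adjusted p = 0.0191), a call lost without ZT10 replicate 2 or 3 (adjusted p up to 0.101). Insig2, which holds SCAP and SREBP in the endoplasmic reticulum, ran opposite at 908, 656 and 298 RPKTM at ZT4, 261, 314 and 259 at ZT10, 583, 854 and 951 at ZT16 and 1128, 1030.0 and 1545 at ZT22, with ZT10 lowest and ZT22 highest (ZT22 minus ZT10 difference of 2.13 ± 0.32, pair adjusted p = 0.00348, F-test adjusted p = 0.00589). Its mean in the macrophage table was 82.004 RPKTM against 732 here. Srebf2, the cholesterol regulator, went from 166 ± 37.2 RPKTM at ZT10 to 289 ± 15.6 at ZT22 (F-test adjusted p = 0.0265, lost in 6 of 12 fits). None of these 3 called genes kept its call with the macrophage covariate (adjusted p = 0.149 for Srebf1, 0.147 for Insig2 and 0.328 for Srebf2). Scap itself did not pass, with means of 571 ± 110.3 to 477 ± 14.97 RPKTM at ZT4 and ZT22 (F-test adjusted p = 0.518), and neither did Insig1 (F-test adjusted p = 0.117), where ZT4 replicate 2 was at 367 RPKTM against 1504 and 1136 in the others.

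Cholesterol synthesis was nearly flat by this test. Of 23 genes 2 were called, 8.70% against the 6.92% of all genes. Hmgcs1, the synthase of the early pathway, was low, at 20.2, 14.4 and 8.54 RPKTM at ZT4 and 2.58, 2.40 and 5.43 at ZT16 (F-test adjusted p = 0.0325). It lost its call in 8 of the 12 fits without 1 library. Among those not called, Sqle had means of 432 ± 86.6 RPKTM at ZT4 and 355 ± 196 at ZT10 (F-test adjusted p = 0.834).

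Of 13 triglyceride and lipid droplet genes tested 5 were called (38.5%, against 6.92% of all genes). Gpam was highest at ZT10, and Lpin1, Dgat2, Plin4 and Plin5 at ZT16. Lpin1, a phosphatidate phosphatase, was at 318, 369.7 and 446 RPKTM at ZT4, 591, 594 and 480.2 at ZT10, 1567, 3685 and 783 at ZT16 and 227, 383 and 487 at ZT22, and its 3 ZT16 libraries lay above all others but spread widely (ZT16 minus ZT22 difference of 2.24 ± 0.41, pair adjusted p = 0.207, F-test adjusted p = 0.0119). Plin5, a droplet protein of oxidative tissue, was at 123, 127 and 62.1 RPKTM at ZT4, 86.1, 77.9 and 118 at ZT10, 198, 417 and 319.7 at ZT16 and 250.0, 208 and 204 at ZT22 (ZT16 minus ZT10 difference of 1.68 ± 0.29, pair adjusted p = 0.021, F-test adjusted p = 0.0057). Plin4 rose from 40.1 ± 14.4 RPKTM at ZT4 to 138 ± 41.4 at ZT16 (pair adjusted p = 0.00401, F-test adjusted p = 0.00522). Gpam, the first acyltransferase of the pathway, went from 3855 ± 641 at ZT10 to 1626 ± 356 at ZT16 (F-test adjusted p = 0.0141, 0.0576 without ZT10 replicate 2). Dgat2 differed by 0.59 ± 0.14 between ZT16 and ZT4 and lost its call in 11 of 12 fits. Plin2 did not pass, with 1126 ± 256 RPKTM at ZT4 and 588 ± 194 at ZT16 (F-test adjusted p = 0.0928). Lpin1, Plin4 and Plin5 were lower in the macrophage table (157, 30.8 and 62.4 RPKTM) than here and kept their calls in all 12 fits without 1 library, but not with the macrophage covariate (adjusted p = 0.0834, 0.149 and 0.294).

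**Figure D4:**
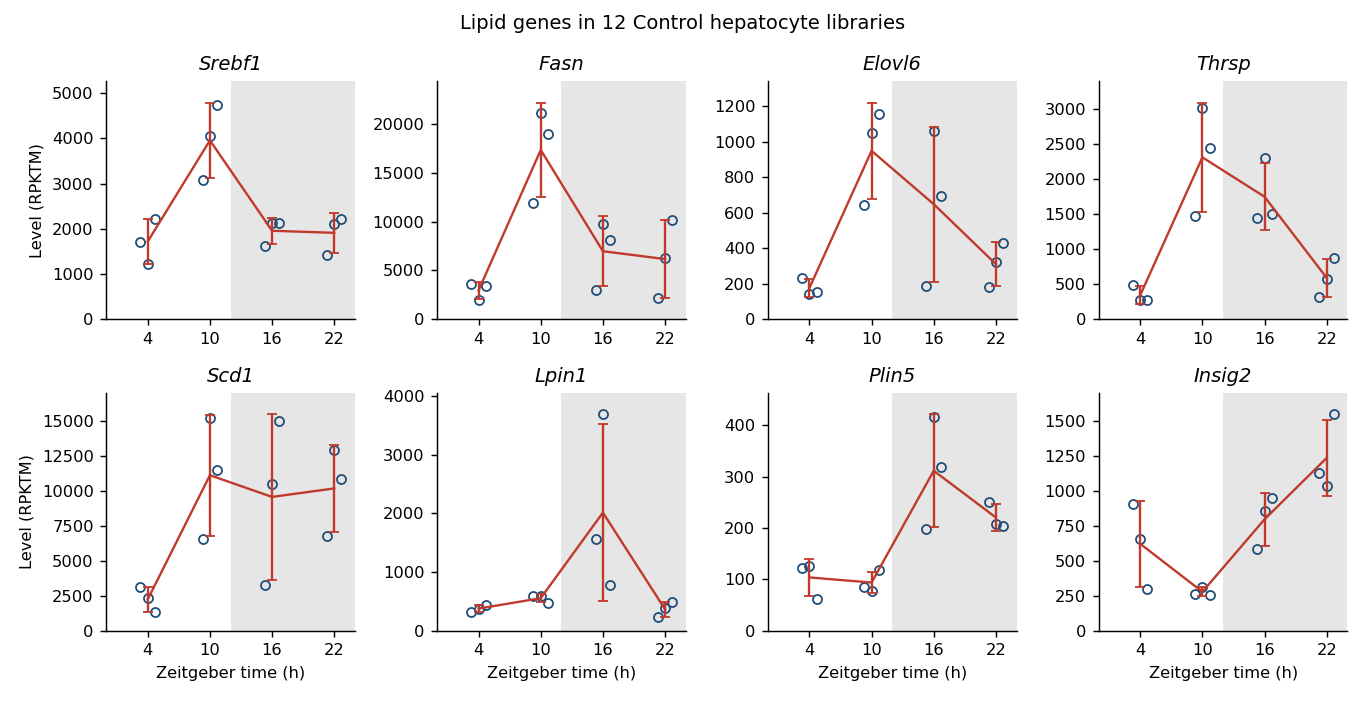
Levels of 8 lipid genes (RPKTM, linear y axes from 0) in the 12 Control hepatocyte libraries by zeitgeber time (x axis, grey for the dark phase). Circles are libraries, and the red line joins means with SD bars (n = 3). Srebf1, Fasn, Elovl6 and Thrsp had their highest mean at ZT10, Lpin1 and Plin5 at ZT16 and Insig2 at ZT22.

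Bile acid synthesis and fatty acid oxidation each gave 1 call. Cyp8b1, which sets the share of cholic acid, was highest at ZT16 with 2306 ± 799.6 RPKTM against 710.2 ± 495 at ZT10 (ZT16 minus ZT10 difference of 1.85 ± 0.40, pair adjusted p = 0.063, F-test adjusted p = 0.0303), 1 of 9 tested (11.1%, against 6.92% of all genes). Cyp7a1, the rate-limiting enzyme, had means of 1038 ± 205 RPKTM at ZT4 and 2509.7 ± 776 at ZT16 and did not pass (F-test adjusted p = 0.162). Ppara, the receptor that switches on fatty acid oxidation, was highest at ZT4, 2089.8 ± 587 RPKTM against 1138 ± 49.4 at ZT22 (ZT4 minus ZT22 difference of 0.84 ± 0.19, pair adjusted p = 0.016, F-test adjusted p = 0.0245), 1 of 17, below the 6.92% of all genes. Cpt1a, the entry step to mitochondrial oxidation, stayed between 1613 and 2188 RPKTM in its time means (F-test adjusted p = 0.26). Cyp8b1 and Ppara lost their calls in 7 and 8 of the 12 fits without 1 library.

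Glucose and glycogen genes gave 5 calls of 17 tested (29.4%, against 6.92% of all genes), 3 of them highest at ZT10, where 0.911% of all genes were called. Pklr, liver pyruvate kinase, was at 317, 252 and 289 RPKTM at ZT4, 742, 1339 and 1182 at ZT10, 606, 1239 and 924 at ZT16 and 352, 574 and 732 at ZT22, lowest in all 3 ZT4 libraries (ZT10 minus ZT4 difference of 1.89 ± 0.29, pair adjusted p = 0.0109, F-test adjusted p = 0.00551). Gys2, liver glycogen synthase, was at 439, 549.9 and 639 RPKTM at ZT4, 734, 750.0 and 705 at ZT10, 558, 606 and 529 at ZT16 and 389.9, 335 and 373 at ZT22. Its ZT10 libraries were the highest and the ZT22 libraries the lowest, with no overlap between those times (ZT10 minus ZT22 difference of 0.996 ± 0.15, pair adjusted p = 0.00368, F-test adjusted p = 0.00837). Slc2a2, the GLUT2 transporter, went from 1427 ± 29.97 RPKTM at ZT4 to 2393 ± 253 at ZT10 (F-test adjusted p = 0.0174). Khk, ketohexokinase of fructose metabolism, was highest at ZT16 with 1325 ± 356 RPKTM against 434 ± 256 at ZT4 (F-test adjusted p = 0.0272). Ppp1r3c, a glycogen-targeting phosphatase subunit, was highest at ZT22 with 612 ± 129 RPKTM against 219.9 ± 64.05 at ZT10 (F-test adjusted p = 0.023), and its level in the macrophage table was 43.9 RPKTM. Pck1 (F-test adjusted p = 0.124) and G6pc (0.251) did not pass. Pck1, the first step of gluconeogenesis, had means of 6146 ± 636 and 2988 ± 835 RPKTM at ZT4 and ZT10. Pklr and Gys2 kept their calls in each fit without 1 library, while Slc2a2, Khk and Ppp1r3c lost theirs in 2, 6 and 4 of 12 (adjusted p up to 0.0723).

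Genes known to answer feeding, insulin or glucocorticoids gave 4 calls of 14 (28.6%, against 6.92% of all genes). Igfbp1, which insulin represses, was at 312, 247 and 203 RPKTM at ZT4, 87.8, 50.6 and 57.03 at ZT10, 142, 161 and 107 at ZT16 and 136, 293 and 129 at ZT22, lowest at ZT10 without overlap (ZT4 minus ZT10 difference of 1.96 ± 0.30, pair adjusted p = 0.0108, F-test adjusted p = 0.00675), and it kept its call with the macrophage covariate (adjusted p = 0.0302). Egr1, an immediate early factor, was at 16.8, 95.9 and 128 RPKTM at ZT4, 8.55, 10.47 and 9.66 at ZT10, 2.94, 3.35 and 4.72 at ZT16 and 8.81, 8.50 and 3.79 at ZT22, highest at ZT4 with wide spread (ZT4 minus ZT16 difference of 3.72 ± 0.56, pair adjusted p = 0.00404, F-test adjusted p = 0.00558). Fkbp5, a glucocorticoid target, was at 37.7, 107 and 70.7 RPKTM at ZT4, 153, 104 and 80.1 at ZT10, 248, 852 and 267 at ZT16 and 209.7, 255 and 111 at ZT22, with ZT16 replicate 2 far above the other libraries (ZT16 minus ZT4 difference of 2.52 ± 0.46, pair adjusted p = 0.00932, F-test adjusted p = 0.0183). Irs2, an insulin receptor substrate, was highest at ZT22, 149 ± 51.9 RPKTM against 54.5 ± 22.98 at ZT10 (F-test adjusted p = 0.0427), a call lost in 9 of 12 fits. Of 17 secreted hepatokines 1 was called (5.88%, below the 6.92% of all genes). It was Angptl4, an inhibitor of lipoprotein lipase, at 407 ± 140.1 RPKTM at ZT16 against 166 ± 37.8 at ZT10 (pair adjusted p = 0.0664, F-test adjusted p = 0.0422, lost in 8 of 12 fits). Fgf21 did not pass, with 18.01 ± 7.63 and 5.37 ± 1.29 RPKTM at ZT10 and ZT16 (F-test adjusted p = 0.124).

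Methyl and choline metabolism and amino acid catabolism gave 2 calls of 13 each (15.4%, against 6.92% of all genes). Chka, choline kinase, was at 179, 94.7 and 118 RPKTM at ZT4, 69.02, 35.3 and 85.3 at ZT10, 199, 256 and 310.4 at ZT16 and 314, 509 and 415 at ZT22, lowest at ZT10 and highest in the dark phase (ZT22 minus ZT10 difference of 2.75 ± 0.31, pair adjusted p = 0.000432, F-test adjusted p = 0.00138). Ddc, the aromatic amino acid decarboxylase, was at 176, 119 and 115 RPKTM at ZT4, 65.7, 59.3 and 72.2 at ZT10, 173, 167 and 240.0 at ZT16 and 226, 234 and 237 at ZT22. Its ZT22 libraries were close together and all 3 ZT10 libraries were below every other library (ZT22 minus ZT10 difference of 1.81 ± 0.19, pair adjusted p = 0.000432, F-test adjusted p = 0.00115). Asl of the urea cycle was highest at ZT16, 2330.1 ± 724 RPKTM against 1015 ± 142 at ZT4 (F-test adjusted p = 0.0161, 0.0519 without ZT16 replicate 3). Chka and Ddc kept their calls in all 12 fits without 1 library. Their means in the macrophage table were 31.03 and 22.2 RPKTM, below those here (215 and 157), and with the macrophage covariate Ddc kept its call (adjusted p = 0.0341) and Chka did not (0.134).

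Xenobiotic and heme genes gave 5 calls of 15 (33.3%), and proteins of the unfolded protein response 4 of 14 (28.6%), against 6.92% of all genes. Por, the electron donor of the cytochromes P450, was at 452, 992 and 849 RPKTM at ZT4, 1565, 1468 and 1832 at ZT10, 2274, 3309.8 and 2357 at ZT16 and 1458, 1714 and 769 at ZT22, highest at ZT16 (ZT16 minus ZT4 difference of 1.85 ± 0.30, pair adjusted p = 0.00572, F-test adjusted p = 0.012). Cyp2a5, which has near-identical copies that can share reads, was at 767 ± 164 RPKTM at ZT4 and 2466 ± 649 at ZT10 (F-test adjusted p = 0.0192). Abcb1a, a drug efflux pump, was at 9.26 ± 7.58 and 59.7 ± 26.8 RPKTM at the same times (F-test adjusted p = 0.02). Alas1, the rate-limiting enzyme of heme synthesis, spread from 778 to 3309.8 RPKTM within ZT16 and lost its call in 9 of 12 fits. Hmox1, heme oxygenase, was highest at ZT22 with 105 ± 23.96 RPKTM, and its mean in the macrophage table was 387 RPKTM. With the macrophage covariate Hmox1 turned direction and was not called (adjusted p = 0.921). Of the chaperone genes, Creld2 was at 44.6 ± 11.5 RPKTM at ZT10 and 148 ± 50.5 at ZT22 (F-test adjusted p = 0.0109), and Dnajb11 at 215 ± 16.9 at ZT4 and 383 ± 53.5 at ZT22 (F-test adjusted p = 0.0127). Manf and Sdf2l1 were highest at ZT22 too (F-test adjusted p = 0.0218 and 0.0489), while Hspa5 (BiP) did not pass (F-test adjusted p = 0.0956). None of the 4 called chaperone genes kept its call with the macrophage covariate. Without 1 library, Sdf2l1 lost its call in 9 of 12 fits (adjusted p up to 0.164), Manf in 4 and Creld2 in 1, while Dnajb11 kept it. Cyp2a5 and Abcb1a lost theirs in 2 fits each and Hmox1 in 1, while Por kept its call.

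Several of the largest differences belonged to genes of other functions. Elovl3, an elongase of very long chain fatty acids, was at 1213, 1102 and 222 RPKTM at ZT4, 178, 142 and 124 at ZT10, 1147, 1812 and 1733 at ZT16 and 2547, 2167 and 3915 at ZT22, with every ZT10 library below all others (ZT22 minus ZT10 difference of 4.24 ± 0.47, pair adjusted p = 0.000432, F-test adjusted p = 0.00138), and was lower in macrophages (133 RPKTM against 1359 here). Usp2, a deubiquitinase, was at 14.2, 26.7 and 31.3 RPKTM at ZT4, 127, 147 and 124 at ZT10, 144, 196 and 97.9 at ZT16 and 28.4, 48.5 and 27.96 at ZT22, high at ZT10 and ZT16 and low at the other times (ZT16 minus ZT4 difference of 2.57 ± 0.31, pair adjusted p = 0.0014, F-test adjusted p = 0.000928). Tsku, a secreted proteoglycan of liver, was at 239.7, 176 and 75.7 RPKTM at ZT4, 363, 639 and 683 at ZT10, 1027, 984 and 769 at ZT16 and 771, 565 and 812 at ZT22, lowest at ZT4 (ZT16 minus ZT4 difference of 2.63 ± 0.34, pair adjusted p = 0.00177, F-test adjusted p = 0.00253). Rgs16, a regulator of G protein signalling, was at 70.8, 382 and 319 RPKTM at ZT4, 215, 658 and 329 at ZT10, 25.98, 213 and 41.9 at ZT16 and 16.8, 26.9 and 20.96 at ZT22, with high values in 2 of 3 ZT4 libraries (ZT10 minus ZT22 difference of 4.02 ± 0.69, pair adjusted p = 0.00737, F-test adjusted p = 0.01). Cdkn1a, the cell cycle inhibitor p21, was at 32.04, 3.27 and 4.56 RPKTM at ZT4, 1.06, 0 and 1.17 at ZT10, 18.6, 114 and 23.4 at ZT16 and 50.3, 20.5 and 31.3 at ZT22, close to 0 at ZT10 (ZT16 minus ZT10 difference of 4.53 ± 0.74, pair adjusted p = 0.0143, F-test adjusted p = 0.00584). Wee1, a kinase that holds back mitosis, was at 9.25, 29.5 and 16.4 RPKTM at ZT4, 67.96, 82.9 and 80.1 at ZT10, 31.6, 24.6 and 31.7 at ZT16 and 18.02, 19.1 and 20.4 at ZT22, with ZT10 above all other libraries (ZT10 minus ZT4 difference of 2.14 ± 0.31, pair adjusted p = 0.00837, F-test adjusted p = 0.00358). With Gadd45a (F-test adjusted p = 0.0295, lost in 7 of 12 fits) Cdkn1a and Wee1 made 3 calls of 9 cell cycle genes tested (33.3%, against 6.92% of all genes). Pitx3 was at 26.6, 17.8 and 1.64 RPKTM at ZT4, 3.87, 2.05 and 1.01 at ZT10, 29.6, 54.04 and 39.7 at ZT16 and 54.3, 74.3 and 98.2 at ZT22 (ZT22 minus ZT10 difference of 4.58 ± 0.65, pair adjusted p = 0.00266, F-test adjusted p = 0.00358), and Slc34a2, a phosphate transporter, ran from 0.656 ± 1.04 RPKTM at ZT10 to 32.2 ± 7.29 at ZT22 (F-test adjusted p = 0.00303). Klhl31 and Gpx5 were low genes highest at ZT4, with 15.03 ± 2.71 and 11.8 ± 6.99 RPKTM there (F-test adjusted p = 0.00267 and 0.00805). These 10 genes stayed past the threshold in every one of the 12 leave-out fits, and Elovl3, Usp2, Tsku, Wee1 and Klhl31 also with the macrophage covariate. Rgs16 and Cdkn1a lost their call when low values were not filtered out. Others named by the same rule were less stable: Adgrf1, Lrit1, Rwdd2a, Sh3pxd2b and Cd14 lost their call in 2, 8, 7, 10 and 9 of 12 fits. Marco, Cd14 and Dcn, markers of macrophages, monocytes and stellate cells, belonged to the same largest differences, and Dcn was at 63.4, 60.03 and 69.1 RPKTM at ZT4, 194, 137 and 160.1 at ZT10, 168, 314 and 347 at ZT16 and 359, 410.4 and 557 at ZT22 (ZT22 minus ZT4 difference of 2.74 ± 0.25, pair adjusted p = 0.000237, F-test adjusted p = 0.000319).

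The rhythm test of the study gave a larger count that rested on how the series was entered. A JTK_CYCLE-style rank test with the series entered 2 times in a row, periods of 18 and 24 h tried, and a highest time mean above 1.5 times the lowest called 3199 of 12930 genes rhythmic (24.7%), with peaks assigned to ZT4 in 882, ZT10 in 598, ZT16 in 977 and ZT22 in 742. Entering the same 12 values once left 568 (4.39%), with 173, 99, 164 and 132. Arntl, Npas2, Per3, Cry1, Nr1d2, Dbp, Tef, Nfil3 and Ciart were rhythmic both ways. Clock, Per1, Per2, Cry2, Nr1d1, Bhlhe40 and Bhlhe41 were rhythmic only with the series entered 2 times. After adjustment over genes the series entered once gave 0 calls, with 692 at an unadjusted p under 0.05 and a smallest possible p of 0.000758, against 874 by the limma F-test.

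The time course was compared with those of the libraries labelled RevDKO and RevScapTKO to see where the Control course differed. RevDKO stands for hepatocyte knockout of Rev-erbα and Rev-erbβ, and RevScapTKO for knockout of both and of Scap. Per the study's methods, the vector of these mice expressed Cre in place of GFP. The RevScapTKO mice also carried floxed Scap alleles, from a further cross. A test of the interaction of time and genotype over all 36 hepatocyte libraries called 21 of 13325 genes (0.158%) for RevDKO and 19 (0.143%) for RevScapTKO, with 9 in both. Leaving out Control ZT10 replicate 2 or 3, or RevDKO ZT10 replicate 1 or 2, gave 10, 13, 12 and 11 for RevDKO. For RevScapTKO the count was 11, 11, 10 and 12 without Control ZT10 replicate 1 or 2 or RevScapTKO ZT10 replicate 1 or 3, and 47 without RevScapTKO ZT4 replicate 1. Of the 31 genes called in either, 29 were among the 874, which made up 6.92% of the genes tested by the F-test. The same Control libraries entered each of these tests. That overlap, and that of the 9 genes called in both, is therefore no independent support. The targeted transcripts came first as a check. In time order, Nr1d1 means were 257, 86.2, 11.4 and 8.28 RPKTM in Control, 244, 188, 66.1 and 53.2 in RevDKO and 195, 149, 96.3 and 121 in RevScapTKO. Nr1d2 means were 305, 392.005, 153 and 63.3 RPKTM in Control, 403, 393, 291 and 162 in RevDKO and 365, 379.7, 371 and 294 in RevScapTKO. The knockout means of Nr1d1 were below the Control mean at ZT4 and above it at the other times, and those of Nr1d2 were within the Control spread at ZT10 and above the Control mean at the other times, so in the libraries labelled as knockouts the level over the whole gene was not uniformly lower. The deleted exon is not given in the sources used here, so these levels do not test the deletion. Scap was 395 to 698 RPKTM in the Control libraries and 82.8 to 299 in the RevScapTKO libraries, with no overlap.

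The Control course of Arntl was the clearest of these differences. It ran from 6.49 ± 3.60 RPKTM at ZT10 to 116 ± 3.52 at ZT22 (SD, n = 3), while RevDKO stayed at 128 ± 15.1 and 142 ± 4.68 and RevScapTKO at 110.4 ± 11.8 and 125 ± 20.2 (interaction adjusted p = 2.03e-07 for either). The range over the day was 4.07 on the log2 scale in Control, 0.24 in RevDKO and 0.18 in RevScapTKO. Cry1 at ZT4 was 24.9 ± 8.78 RPKTM in Control against 116 ± 21.9 in RevDKO and 102 ± 24.6 in RevScapTKO (adjusted p = 0.000906 and 0.00101). Chka and Ddc, both lowest at ZT10 in Control, were called too. At ZT10 Chka was 63.2 ± 25.5, 429.9 ± 61.9 and 392.02 ± 34.3 RPKTM in the 3 genotypes (adjusted p = 0.00935 and 0.00738), and Ddc was 65.8 ± 6.46, 267 ± 9.39 and 205 ± 17.8 (0.000868 and 0.00101). Loxl4, a lysyl oxidase, went from 11.9 ± 2.28 RPKTM at ZT10 to 129 ± 26.7 at ZT22 in Control and was above 500 RPKTM in the means of all 4 times in both other genotypes (0.00305 and 0.000252). For Dbp, Per2, Per3, Ciart and Tef the interaction was not called in either genotype (adjusted p from 0.429), which does not show that their courses were alike.

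**Figure D5:**
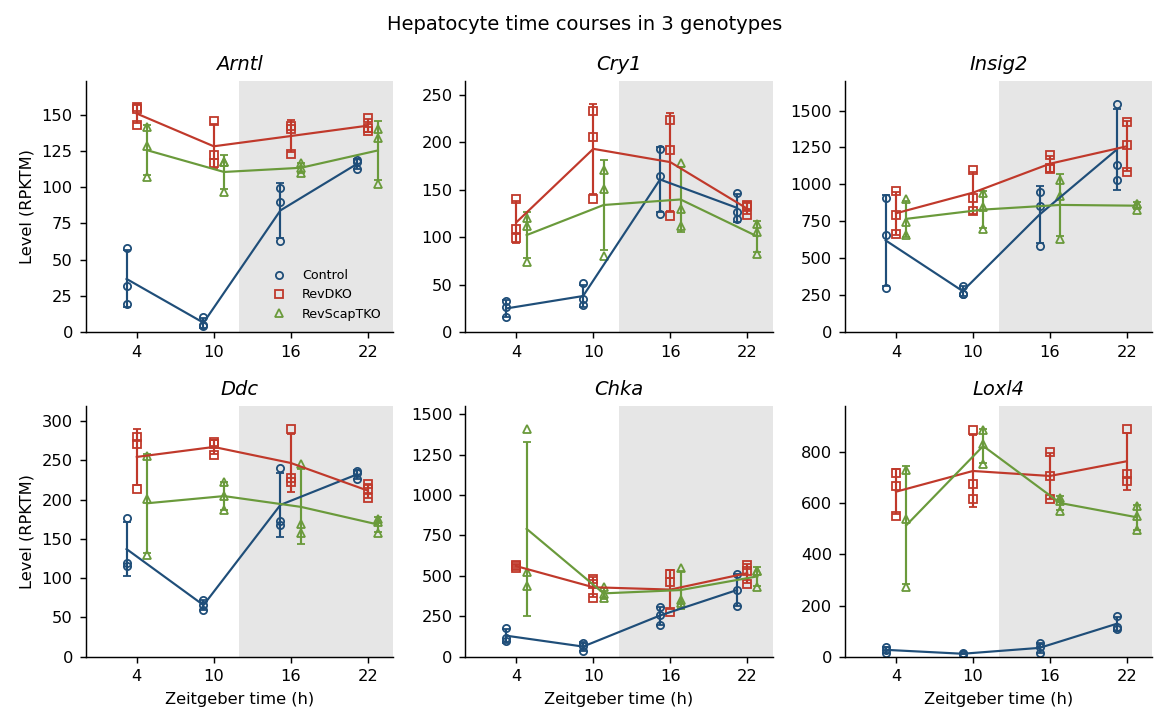
Levels of 6 genes (RPKTM, linear y axes from 0) over zeitgeber time (x axis, grey for the dark phase) in Control (blue circles), RevDKO (red squares) and RevScapTKO (green triangles) hepatocyte libraries. Symbols are libraries and lines join means with SD bars (n = 3). In Control, Arntl, Insig2, Ddc, Chka and Loxl4 were lowest at ZT10 and highest at ZT22, and at ZT10 every library of the other genotypes lay above every Control library for all 6 genes.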

How the data were processed

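RNA-seq of rRNA-depleted total RNA from isolated hepatocytes was deposited as a table of RPKTM values (10 times the RPKM scale) per RefSeq transcript. The authors aligned reads to mm9 with STAR, counted with HOMER and quantile normalised the 36 hepatocyte columns together. Tool versions are not given in the sources used here. The deposited table carries no depth. One transcript per symbol (the highest mean over the Control columns) was kept, with more than 5 RPKTM in at least 3 of 12 columns, and log2(RPKTM + 1) was tested with limma 3.58.1 in R 4.3.3 (trend, moderated F over 4 times, 6 contrasts, 24 h cosine, interactions over 36 libraries; Benjamini-Hochberg, 0.05). A filter of this kind lets in genes through the time at which they are high: 252 tested genes passed with exactly 3 columns. A log2 difference with this pseudocount understates the change of low genes. The rank test and the promoter search ran in Python, and each fit was checked on simulated data. Groups came from the labels. Replicate numbers only name libraries and were not used to pair them.

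Named genes were the 6 with the largest difference per time of highest mean among separated calls (leaving out unnamed models), the 5 smallest p overall and per genotype interaction, and members of the pathway and marker lists. The members and lists were chosen with earlier results of these data known. Alternatives were other pseudocounts, filters, normalisation, covariates, a replicate block and leaving out libraries. The macrophage table was used for the 12 Control columns as levels only, and the 2 tables of Scap-only knockout livers were not used here. Some genes that the rule or the lists name are not reported here, and the counts include them.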

Additional observations from a re-analysis of the deposited data

Results flagged for a closer look

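Among the named genes, 15 reported here had a time course in Control hepatocytes that differed from that in a knockout by the test of the interaction of time and genotype (limma, adjusted over 13325 genes). Of the clock genes, Arntl differed in both (adjusted p = 2.03e-07 for RevDKO and 2.03e-07 for RevScapTKO), as did Cry1 (0.000906 and 0.00101). Nfil3 differed in RevDKO (0.00935), with a range over the day of 1.56 on the log2 scale in Control and 0.59 in RevDKO. It was not called in RevScapTKO (0.0813), though its range there was 0.18. Npas2 differed in RevScapTKO (0.00738), where its range was 0.49 against 5.02 in Control, and Nr1d1 likewise (0.00738, with 1.06 against 4.88). Neither was called in RevDKO (0.0614 for Npas2 and 0.286 for Nr1d1), though their ranges there were 0.83 and 2.15. Whether the RevDKO and RevScapTKO courses differ from each other was not tested. A call in RevDKO alone or RevScapTKO alone, here and below, therefore does not show a difference particular to that genotype.

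Of the other genes, Chka (0.00935 for RevDKO and 0.00738 for RevScapTKO), Ddc (0.000868 and 0.00101) and Loxl4 (0.00305 and 0.000252) differed in both. The lipogenic genes Acly (0.00935), Fasn (0.017) and Gpam (0.00349) differed in RevDKO. Fasn was 17368 ± 4853 RPKTM at ZT10 and 6167 ± 3998 at ZT22 in Control, and 2787 ± 488 and 13366 ± 5114 in RevDKO. Insig2 differed in RevScapTKO (0.0291), with 278 ± 30.995 RPKTM at ZT10 in Control and 829.5 ± 124 there. It was not called in RevDKO (0.16), though its ZT10 level there was 944 ± 142 RPKTM. Lpl, lipoprotein lipase, differed in RevDKO (0.00185): it was 16.8 ± 7.42 RPKTM at ZT10 and 72.99 ± 12.9 at ZT22 in Control and 258 ± 91.9 and 126 ± 7.79 in RevDKO, and its mean in the macrophage table, 327 RPKTM, was above that in Control hepatocytes. Cdkn1a (0.0483) and Rwdd2a (0.0256) were near the threshold in RevDKO. With 3 libraries at each time no library was tested as standing apart within its group.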

How the results depend on the processing

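With 3 libraries a time and unknown depth, counts of genes moved more than directions did. Of 98 named genes called, 52 kept their call in each of 12 fits without 1 library and 46 lost it in at least 1. With no filter on low values 38 of the 98 kept it. Genes of the 52 that lost it there included Per3, Insig2, Lpin1, Por, Pnpla3, Igfbp1, Egr1, Rgs16 and Cdkn1a. No direction turned except with the macrophage marker covariate, where 12 kept their call and Hmox1 (-0.30), Cd68 (-0.073), Csf1r (-0.20), C1qa (-0.41) and Ptprc (-0.059 on the log2 scale) turned. Cd68, Csf1r and C1qa are part of the marker mean used as that covariate, so the fit cannot judge their time course. For Hmox1 and Ptprc the cause was not tested. Leaving out 1 library gave 481 to 1176 genes by the F-test, 688 to 1366 by the cosine, and 2759 to 3327 by the rank test with the series entered 2 times. The pairs gave 7 to 94 (ZT10 against ZT4), 3 to 156 (ZT16 against ZT10), 0 to 3 (ZT22 against ZT16), 454 to 1101 (ZT4 against ZT22), 126 to 1070 (ZT16 against ZT4) and 90 to 704 (ZT22 against ZT10), and the interactions 10 to 28 for RevDKO and 10 to 47 for RevScapTKO.

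Against 874 genes, no filter on low values (every gene above 0 in any Control library) gave 349, all transcripts 1596 of 25073, the macrophage covariate 27, the covariate over all non-parenchymal markers 34, only genes higher in hepatocytes 376, and the rank test on the series entered once, adjusted over genes, 0 (692 unadjusted). The non-parenchymal covariate, the limit to genes higher in hepatocytes and a fit without ZT22 replicate 2 (516 genes) as the library with albumin on top were chosen after seeing the data. For the pairs in the order above, no filter gave 31, 24, 13, 585, 334 and 181. The macrophage covariate gave 0, 0, 1, 11 and 0 for the last 5 of them, and the non-parenchymal covariate 28, 3, 0, 1, 6 and 0. Genes higher in hepatocytes gave 258, 371 and 228 for the last 3, all transcripts 90, 92, 1826, 1423 and 758 for all but ZT22 against ZT16, and no mean-variance trend 21 and 29 for the first 2. ZT22 against ZT16 gave 2 with a pseudocount of 5, 2 with the replicate block and 4 with the spread of 36 libraries. The rank test gave 568 with the series entered once and 1693 with a fold above 2, and the RevScapTKO interaction 9 with the 24 libraries compared alone.

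Same-numbered libraries of different times did not deviate together (correlations -0.20 to 0.12 over 18 pairs, 1 of 12 libraries closest to its own number). The fit with the replicate block called 680 genes, and 82 of the 98 named genes kept their call in it. A planned fit without replicate 1 of ZT16 and of ZT22 had been meant for libraries with albumin on top, which in this table is replicate 2 of ZT22. Run as planned, it gave 151 genes for ZT16 against ZT10, 0 for ZT22 against ZT16 and 563 for ZT4 against ZT22.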

Other observations

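None of 15 ribosome biogenesis genes and none of 14 respiratory chain genes passed the limma F-test, against 6.92% of all genes, and their median differences between highest and lowest time were 0.37 on the log2 scale in each list, against 0.51 over all genes tested. Of 12 heat shock and cold-inducible genes 1 was called (8.33%, near the 6.92% of all genes). It was Hsp90aa1, with 312 ± 26.3 RPKTM at ZT22 against 179.9 ± 11.4 at ZT10 (F-test adjusted p = 0.0412), lost in 7 of 12 fits without 1 library. Hspa1b, an inducible chaperone, did not pass (F-test adjusted p = 0.0664), with 24.6, 33.3 and 38.4 RPKTM at ZT16 and between 1.26 and 7.57 in the light phase. Of 11 immediate early factors, Ier2 and Zfp36 were called (18.2%), both highest at ZT4 (F-test adjusted p = 0.04 and 0.0272), and lost in 10 and 7 of 12 fits.

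Among markers of rarer cells, Ptprc, the pan-leukocyte receptor, was called and highest at ZT22 (73.2 ± 6.53 RPKTM against 15.5 ± 6.47 at ZT4). The neutrophil markers (0 of 2 tested) and the cholangiocyte marker tested (0 of 1) were not called. Hbb-bs of red blood cells, whose copies can share reads, was highest at ZT16 (30.4 ± 13.5 RPKTM, F-test adjusted p = 0.0252).

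The first principal component of the 12 libraries, 30.8% of the variance, placed ZT4 at -31.3 to -45.3, ZT10 at -14.97 to -20.5, ZT22 at 29.7 to 31.6 and ZT16 at 2.50, 32.3 and 34.2. Replicate 1 of ZT16 lay between ZT10 and the other dark-phase libraries, and its summed macrophage markers were the lowest of the dark phase (961 RPKTM).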
